A study of Felis catus with 8 samples.

Results

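The genes described here are 42 genes of the skeletal muscle sarcomere, with its calcium handling and its energy supply, as measured in cat liver. They were chosen by their high intensities on the 2 arrays of 1 diet, the trans-fat/HFCS diet, so their values on those arrays are given as a description, with no test. All 42 were found among the 17910 genes tested, and they held 1230 of the 224320 probe sets that are annotated to a single gene. A further 10 probe sets name a member beside another gene, all of them KBTBD10 with BBS5, and were left out.

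The sarcomere is the contractile unit of striated muscle. Thick filaments of myosin pull on thin filaments of actin, tropomyosin and troponin when calcium leaves the sarcoplasmic reticulum and binds troponin C, and the calcium is then pumped back. Many of these proteins come in a fast-fibre and a slow-fibre form, encoded by separate genes. Hepatocytes have a cytoskeleton of other actins and myosins, and the striated muscle forms are not part of the usual liver programme.

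Liver was snap-frozen from male domestic cats (Felis catus) aged 9 months, and 8 arrays were analysed. They came from 4 diets with 2 arrays each. Controls ate a standard feline chow. MSG cats ate this chow with monosodium glutamate (MSG), used to enhance flavour, at 1.125%. Trans-fat/HFCS cats ate trans fat at 8.6% with high-fructose corn syrup (HFCS) at 24%. Cats of the combined group ate both at these percentages, with MSG at 1.125%. In every group the exposure began before birth: the dams ate the diet from 3 weeks before mating through gestation and nursing, and their sons were weaned onto it. RNA was extracted from 4 to 5 livers per diet, and the labels number the arrays as different cats, but they give no litters and leave it unsaid if an array held 1 cat or several. The p-values below therefore measure the spread between arrays. No litter, dissection or processing batch is named, so anything that the 2 arrays of a diet shared cannot be told apart from the diet.

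The RNA was hybridised to a human exon-level array, and values are log2 of the deposited normalized intensity. The array medians lay between 5.25 and 5.28 in intensity and the lowest values between 2.22 and 2.30, so the arrays shared a scale. Liver markers were present on every array: albumin (ALB) lay between 9.63 and 10.06 on the log2 scale. Of 17 hepatocyte markers, 4 were lower on both trans-fat/HFCS arrays than on all others, CYP7A1 (-1.67), G6PC (-0.51), ASS1 (-0.37) and TF (-0.35), and AMBP (0.32) was higher. The summed intensity of the 17 was 6694 to 6962 on the trans-fat/HFCS arrays, 6865 to 7316 on the control, 7175 to 7953 on the MSG and 6793 to 7105 on the combined arrays. A gene's level is the mean over its probe sets brighter, on average over the 8 arrays, than the median probe set (log2 2.43). In bulk liver, more muscle cells and more muscle RNA per cell cannot be told apart.

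Sarcomere genes were higher on both trans-fat/HFCS arrays than on any of the other 6 for 31 of the 42 members. Over all genes tested, 6.53% had this pattern, and since it chose the members nothing is read from the excess. The median difference between the mean of the 2 trans-fat/HFCS arrays and the mean of the other 6 was 1.12 on the log2 scale (2.18-fold), against 0.01 over all genes. A difference of at least 1 was found for 22 members (0.821% of all genes), and 37 of the 42 differences were above 0. The 2 arrays gave much the same picture: array 1 was the higher for 20 members and array 2 for 22, with a median gap of 0.15 between them, and 31 members lay within 0.25.

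**Figure D1:**
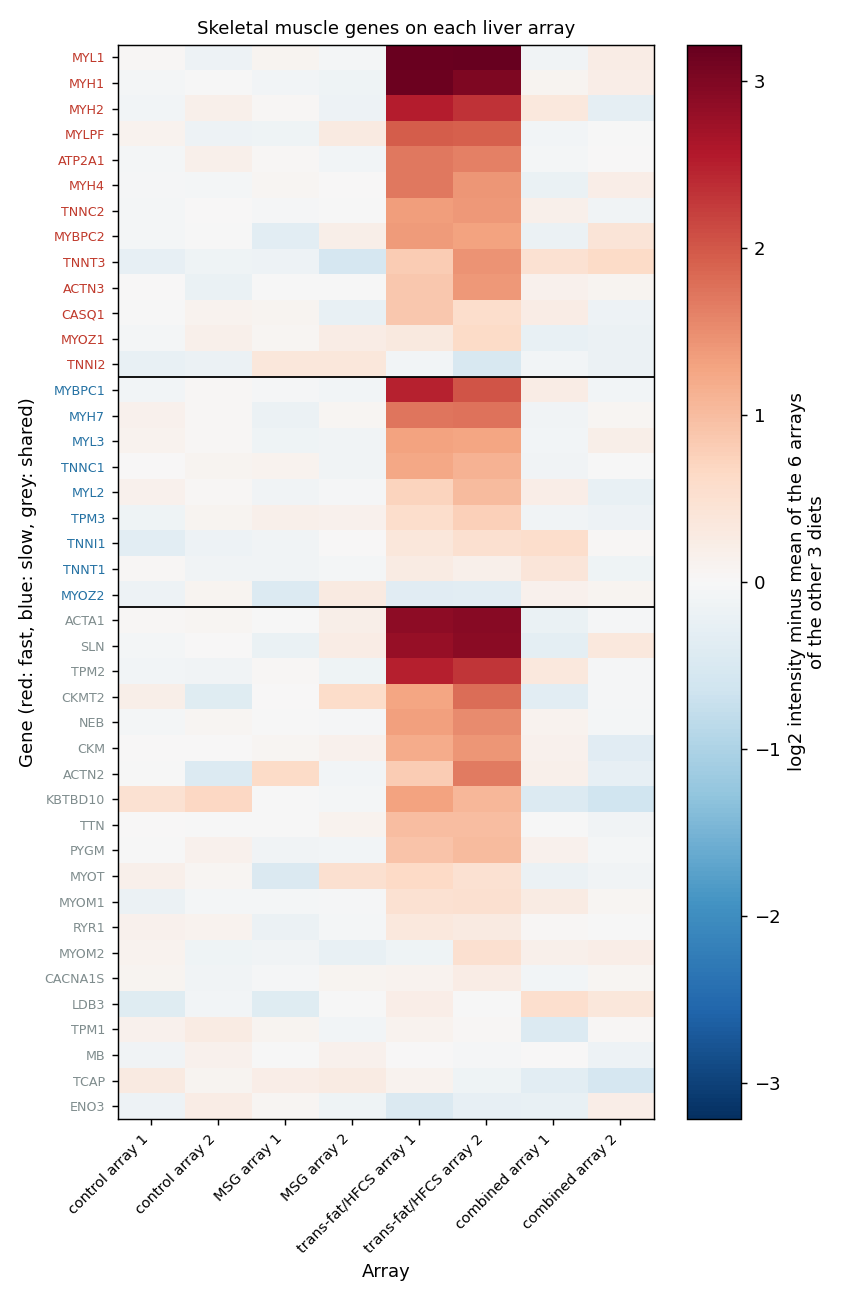
Each row is a gene and each column a liver array; colour gives the log2 intensity of the gene on that array minus its mean over the 6 arrays of the other 3 diets, and labels are red for fast-fibre, blue for slow-fibre and grey for shared genes. The 2 trans-fat/HFCS columns have member medians of 0.90 and 1.10, and the medians of the other 6 columns lie between -0.03 and 0.03.

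The combined arrays, whose diet held the same trans fat and HFCS, had medians of 0.00 and -0.03. The centring on the 6 arrays itself keeps their medians near 0, so the diets other than trans-fat/HFCS are compared by tests further on. When the 15910 genes with at least 2 usable probe sets were ranked by the gap between the lower trans-fat/HFCS array and the highest other array, the first 10 were all members, as were 16 of the first 20. High values on these arrays chose the members, so nothing is read from their place in this ranking.

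Single probe sets showed the pattern too. A probe set was counted as rising where both trans-fat/HFCS arrays lay above all 6 others and the mean difference was at least 1 on the log2 scale. This held for 194 of the 1230 member probe sets (15.8%), against 1.29% of all single-gene probe sets. Their median difference was 2.53 (5.79-fold), and 77 of them, in 24 genes, differed by at least 3. The threshold cut through a continuum: just inside it lay probe sets of MYH2 at 1.00 and of TTN at 1.03 and 1.03, and just outside it TTN at 0.998 and 0.994 and RYR1 at 0.994. Without the fold, 287 member probe sets (23.3%) lay above all 6 other arrays, against 4.82% of all probe sets.

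The brightest examples went from the bottom of the scale to far above it. The MYH1 probe set with the largest difference read 705 and 776 in intensity on the trans-fat/HFCS arrays and between 3.04 and 3.54 on the other 6, a ratio of 225. The MYL1 probe set read 1216 and 1256 against 4.29 to 11.2, and that of skeletal alpha-actin (ACTA1) 507 and 516 against 3.36 to 3.73. In all 3 the 2 arrays of the diet lay close together and no other array came near them. Of the rising probe sets, 70 were below the median probe set on all 6 other arrays. By their mean over those 6 arrays, only 67 of the 194 lay above the median probe set of those arrays (log2 2.42). The median of these means over the 194 was 2.19. The ratios of most rising probe sets therefore rest on values near the array's floor. Such ratios are no measure of how much RNA the other livers held.

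**Figure D2:**
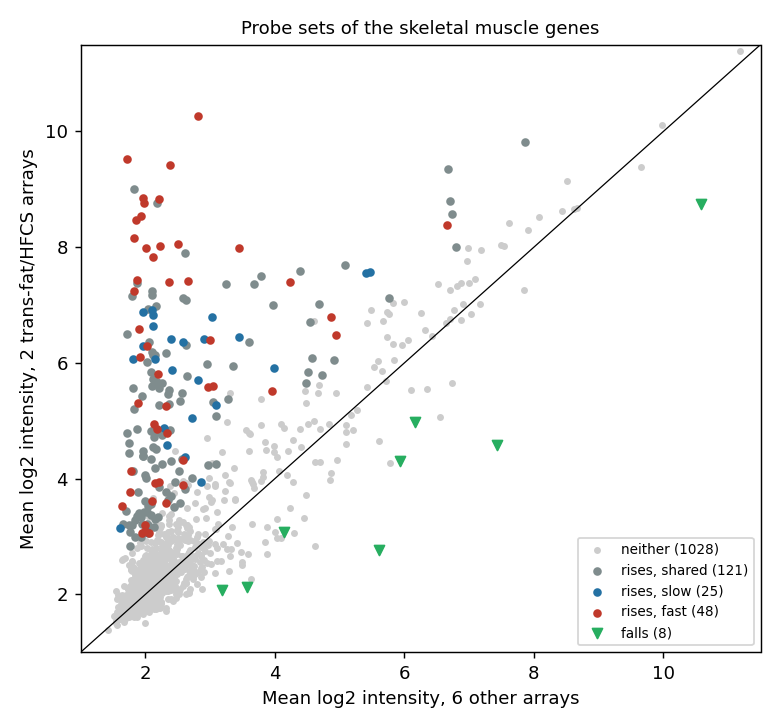
Each point is 1 of the 1230 member probe sets, with its mean log2 intensity on the 6 other arrays on the horizontal axis and on the 2 trans-fat/HFCS arrays on the vertical axis; the line marks equal values. The 194 rising probe sets are coloured by fibre class, most of them at the left edge, and the 8 falling ones are green triangles below the line.

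The share of rising probe sets differed widely between genes. ACTA1 had the highest, 10 of 12 (83.3%), followed by beta-tropomyosin (TPM2) with 6 of 11 (54.5%) and the fast regulatory light chain (MYLPF) with 4 of 8. MYL1 and the muscle creatine kinase CKM each had 4 of 9 (44.4%), fast troponin C (TNNC2) 3 of 7 (42.9%) and sarcolipin (SLN) 2 of 5 (40.0%). The giant genes lay lower: 28 of 150 (18.7%) for nebulin (NEB), 51 of 319 for titin (TTN) and 3 of 106 (2.83%) for the ryanodine receptor RYR1. In 35 genes at least 1 probe set was counted as rising. None was in 7: TNNI2, TNNI1, MYOZ2, MB, CACNA1S, LDB3 and MYOM2. A gene with many probe sets reaches 1 more easily. The share of all genes that do so was not counted, so nothing is read from these 2 counts.

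The gene means depend on which probe sets enter them. Of the 1230 probe sets 350 (28.5%) were below the median probe set on all 8 arrays, the trans-fat/HFCS arrays included. Of the 493 that passed the filter on brightness, 126 would not have passed a filter set on the other 6 arrays, and 92 of those were rising ones. With that filter 383 member probe sets passed, of which 67 (17.5%) were rising, and the median difference of the 42 members was 0.34 in place of 1.12. A difference of at least 1 was then found for 11 members in place of 22. SLN stayed at 2.85, MYL1 was at 2.44, ACTA1 at 2.01 and TPM2 at 1.89. MYH1 went from 3.07 to 0.06, MYBPC1 from 2.24 to 0.30, CKMT2 from 1.54 to 0.06 and ACTN3 from 1.12 to 0.10, so their gene means rest on probe sets that were dim in the other livers. The same held in large part for ATP2A1 (1.65 to 0.43), MYBPC2 (1.33 to 0.17), ACTN2 (1.24 to 0.35) and TNNC1 (1.18 to 0.21). It also held for TTN (0.99 to 0.30) and MYL2 (0.86 to 0.09). In part it held for MYH2 (2.42 to 1.13), MYLPF (1.93 to 1.12), NEB (1.42 to 0.55) and CKM (1.30 to 0.53). KBTBD10 (1.19), TNNT3 (1.12) and PYGM (0.97) did not move.

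**Figure D3:**
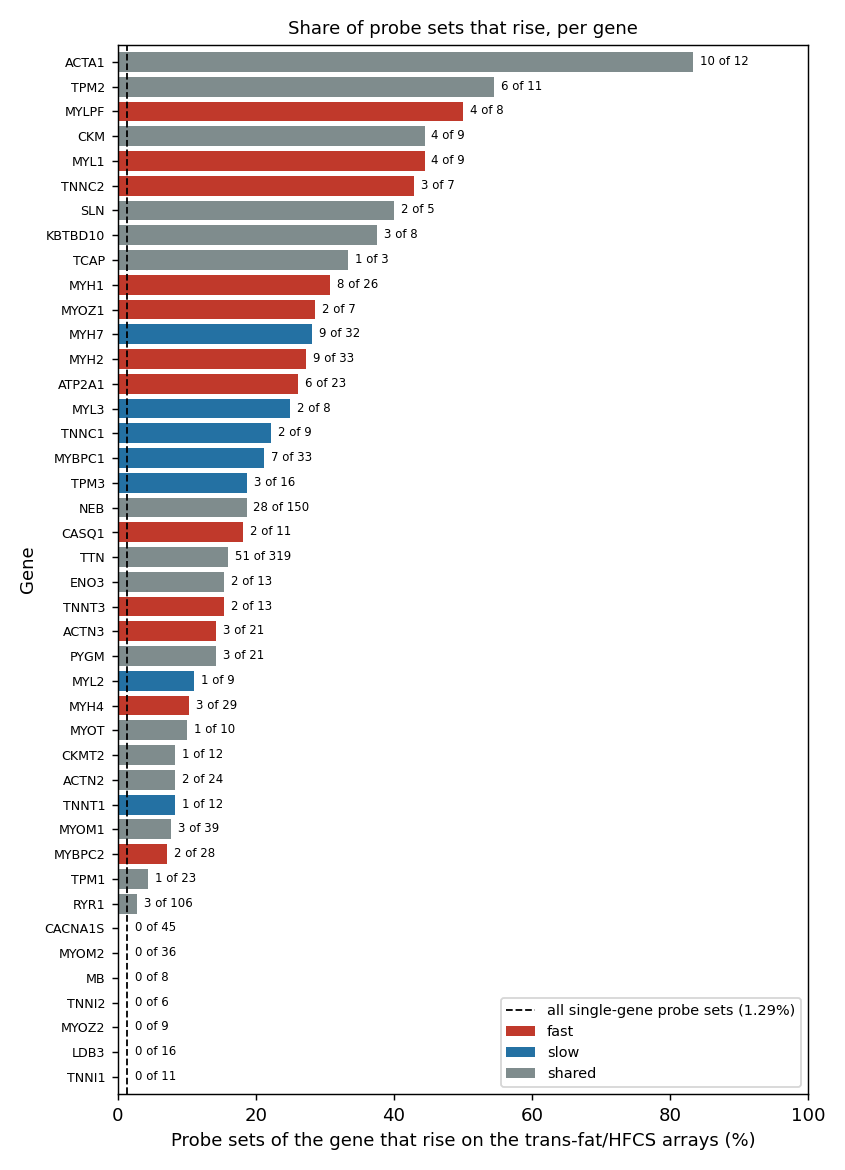
Bars give, for each of the 42 genes, the percentage of its single-gene probe sets counted as rising on the trans-fat/HFCS arrays, with the counts beside them; colours mark fast, slow and shared genes. The dashed line at 1.29% is the share over all single-gene probe sets, and ACTA1 at 83.3% stands highest.

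Thick filament genes had the largest differences: all 10 lay above the other 6 arrays, with a median of 1.83 and 49 of 215 probe sets (22.8%) rising. MYL1, the essential light chain of fast fibres, read 6.45 and 6.49 on the trans-fat/HFCS arrays, 3.30 and 3.10 on control, 3.35 and 3.21 on MSG and 3.16 and 3.50 on combined arrays. The difference was 3.19, the largest of any member. MYH1, the heavy chain of type IIx fibres, read 5.48 and 5.32 on the trans-fat/HFCS arrays against 2.26 and 2.31, 2.23 and 2.20, and 2.41 and 2.53 in the same order of control, MSG and combined diets. Both genes had a wide gap between the diet and all others, 2.94 for MYL1 and 2.78 for MYH1, the latter through probe sets that were dim on the other arrays.

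The other heavy chains followed. MYH2, of type IIa fibres, was at 5.06 and 4.86 on the trans-fat/HFCS arrays, 2.44 and 2.71 on control, 2.59 and 2.38 on MSG and 2.87 and 2.26 on combined arrays. MYH7, the heavy chain of slow fibres and of the heart ventricle, was at 5.33 and 5.36 against 3.75 and 3.65, 3.42 and 3.68, and 3.51 and 3.67. MYH4, of type IIb fibres, was at 5.21 and 4.92 against 3.47 and 3.45, 3.58 and 3.52, and 3.28 and 3.73. The differences were 2.42, 1.73 and 1.56, with no overlap in any of the 3. Heavy chain genes of striated muscle are related in sequence, and their sequences were not compared here. Which of them a human probe set read in cat RNA is therefore uncertain.

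Among the other thick filament genes, the slow-type myosin-binding protein C gene MYBPC1 was high, at 5.91 and 5.44 on the trans-fat/HFCS arrays against 3.35 and 3.47 on control, 3.40 and 3.35 on MSG and 3.68 and 3.35 on combined arrays. Its fast relative MYBPC2 read 4.25 and 4.20 against 2.83 and 2.88, 2.56 and 3.07, and 2.71 and 3.32. MYLPF, the fast regulatory light chain, read 5.18 and 5.17 against 3.35 and 3.08, 3.10 and 3.54, and 3.16 and 3.24. All 3 were clear of the other arrays, by 1.76, 0.88 and 1.63 in that order. The slow light chains had smaller differences: MYL3 read 4.31 and 4.29 against 3.12 and 3.05, 2.87 and 2.90, and 2.91 and 3.21. For MYL2 the values were 4.04 and 4.34 against 3.46 and 3.38, 3.22 and 3.30, and 3.54 and 3.10. Neither light chain overlapped with the other diets.

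Thin filament genes were less uniform, with 7 of 11 clear of the other arrays, a median difference of 1.12 and 56 of 270 probe sets (20.7%) rising. ACTA1, the actin of skeletal muscle, was at 7.57 and 7.60 on the trans-fat/HFCS arrays, 4.71 and 4.74 on control, 4.67 and 4.88 on MSG and 4.47 and 4.64 on combined arrays, a difference of 2.90. TPM2 was at 6.16 and 5.96 against 3.56 and 3.54, 3.70 and 3.52, and 3.99 and 3.61. TPM3, whose muscle product is the slow alpha-tropomyosin and which is also made outside muscle, was at 5.08 and 5.29 against 4.38 and 4.62, 4.69 and 4.65, and 4.41 and 4.37. The other alpha-tropomyosin gene, TPM1, is widely made outside muscle too, and overlapped: 5.50 and 5.43 against 5.52 and 5.65, 5.48 and 5.29, and 4.95 and 5.43.

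The troponin genes did not all behave alike. Troponin C, the calcium sensor, was high in both forms: TNNC2 read 6.09 and 6.13 on the trans-fat/HFCS arrays against 4.68 and 4.76 on control, 4.71 and 4.74 on MSG and 4.90 and 4.63 on combined arrays. Slow TNNC1 read 5.86 and 5.74 against 4.64 and 4.71, 4.73 and 4.51, and 4.51 and 4.60. With the filter set on the other 6 arrays the differences of TNNC2 and TNNC1 were 0.86 and 0.21. Fast troponin T (TNNT3), which ties the complex to tropomyosin, read 5.37 and 6.00 against 4.29 and 4.43, 4.40 and 4.03, and 5.04 and 5.17, where the combined arrays came closest. These 3 did not overlap with the other diets.

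The remaining troponins did overlap. Slow troponin T (TNNT1) read 4.39 and 4.30 on the trans-fat/HFCS arrays and 4.51 on a combined array. Its other values were 4.18 and 4.01 on control, 4.03 and 4.07 on MSG and 4.00 on the other combined array. Troponin I, the inhibitory subunit, did not clear the other arrays in either form. TNNI1, the slow one, read 3.62 and 3.76 against 2.89 and 3.09, 3.12 and 3.26, and 3.81 and 3.29. Fast TNNI2 was at 4.29 and 3.88, below both MSG arrays (4.74 and 4.74) and among the control (4.15 and 4.18) and combined arrays (4.29 and 4.19). TNNI2 rested on 2 usable probe sets of 6, and TNNI1 on 8 of 11.

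Nebulin, the ruler of the thin filament, was clear of the other arrays at 4.46 and 4.66 against 3.07 to 3.26. With the filter set on the other 6 arrays its difference was 0.55 in place of 1.42. Its rising probe sets had a median difference of 2.60, and the largest read 172 and 164 in intensity against 3.26 to 4.68.

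Genes of the Z-disc and M-band, with titin, had a median difference of 0.50, and 6 of 11 were clear of the other arrays. Titin, which spans from the Z-disc to the M-band, was at 3.97 and 3.98 on the trans-fat/HFCS arrays and between 2.88 and 3.10 on the others. The alpha-actinins, which cross-link actin at the Z-disc, differed more from array to array: ACTN2 was at 4.24 and 5.08 against 2.98 to 4.04, and ACTN3, the fast-fibre form, at 4.26 and 4.79 against 3.20 to 3.53. The probe set of ACTN2 with the largest difference read 233 on one array of the diet and 88.3 on the other, against 2.93 to 4.08. Both genes were clear of the other diets, ACTN2 by 0.20.

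The calsarcins, which bind alpha-actinin, stood apart from each other. MYOZ1, the fast form, read 4.01 and 4.30 on the trans-fat/HFCS arrays against 3.63 and 3.86 on control, 3.75 and 3.93 on MSG and 3.44 and 3.49 on combined arrays, and cleared the others by 0.07. MYOZ2, the slow and cardiac form, read 2.72 and 2.74 against 2.90 and 3.17, 2.63 and 3.37, and 3.21 and 3.17. Telethonin (TCAP), which caps titin, read 3.77 and 3.54 against 3.96 and 3.76, 3.90 and 3.94, and 3.34 and 3.13. MYOZ2 and TCAP overlapped with the other diets, as did MYOT, LDB3 and MYOM2, while MYOM1 and KBTBD10 did not.

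Calcium handling genes were all 5 clear of the other arrays, SLN by 2.48, ATP2A1 by 1.45 and CACNA1S by only 0.02. Of their 190 probe sets, 13 (6.84%) were rising. With the filter set on the other 6 arrays the difference of SLN was 2.85 and that of ATP2A1 0.43. ATP2A1, the calcium pump of fast fibres, was at 5.07 and 5.00 on the trans-fat/HFCS arrays, 3.33 and 3.55 on control, 3.43 and 3.28 on MSG and 3.32 and 3.39 on combined arrays. SLN, a small membrane protein that inhibits this pump, was at 5.36 and 5.46 against 2.49 and 2.56, 2.35 and 2.79, and 2.24 and 2.88, from 2 usable probe sets. CASQ1, the calcium-binding protein of the reticulum, was at 3.65 and 3.34 against 2.76 and 2.89, 2.86 and 2.54, and 3.02 and 2.61. The channels had the smallest differences, 0.31 for RYR1, the release channel, and 0.17 for CACNA1S, its voltage sensor.

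Energy and oxygen genes were mixed. The mitochondrial creatine kinase CKMT2 read 4.00 and 4.51 on the trans-fat/HFCS arrays against 2.90 and 2.32 on control, 2.73 and 3.30 on MSG and 2.37 and 2.68 on combined arrays. CKM (1.30) and the muscle glycogen phosphorylase PYGM (0.97) were also clear of the other arrays. With the filter set on the other 6 arrays the differences of CKMT2, CKM and PYGM were 0.06, 0.53 and 0.97. Myoglobin (MB), the oxygen store of muscle, was not: 3.07 and 3.01 against 2.95 and 3.18, 3.03 and 3.19, and 3.06 and 2.89. The muscle enolase ENO3 had the lowest difference of all members, -0.37, at 3.55 and 3.75 against 3.85 and 4.26, 4.09 and 3.88, and 3.79 and 4.24. It lay below every other array, although 2 of its 13 probe sets were rising.

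Fast-fibre and slow-fibre genes were both among those high on the trans-fat/HFCS arrays, and the size of the lead of the fast genes depended on the filter. Of 13 fast genes, 12 were clear of the other arrays, with a median difference of 1.37. Of 9 slow genes 6 were, with a median of 0.86, and of 20 genes shared by both fibre types 13 were, with a median of 0.77. Rising probe sets made up 48 of 221 (21.7%) in the fast, 25 of 139 (18.0%) in the slow and 121 of 870 (13.9%) in the shared list. Their median differences were 3.28 (9.70-fold), 3.01 (8.07-fold) and 2.32 (4.99-fold). The difference between the fast and slow medians, 0.51, was 0.09 with no filter on brightness, 0.13 with the filter set on the other 6 arrays and 1.12 with the median probe set of each gene.

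Isoform pairs compare genes of the same role. The fast form had the larger difference in 9 of 13 pairs and the slow form in 4, in each pair on both arrays, and the median of fast minus slow was 0.69. With the filter set on the other 6 arrays the fast form led in 7 pairs and the slow form in 6. The widest leads of the fast form were 1.91 for MYL1 over MYL3, 1.51 for ATP2A1 over ATP2A2, 1.35 for MYH1 over MYH7 and 1.07 for MYLPF over MYL2. Under that filter these were 1.39, 0.32, -1.30 and 1.04, so MYH1 over MYH7 reversed, and MYH2 over MYH7 did too (0.69 and -0.23). ATP2A2, the pump of slow fibres and heart that other tissues also make, overlapped: 6.67 and 6.89 against 6.81 and 6.85, 6.44 and 6.55, and 6.52 and 6.67. CASQ2, the slow and cardiac calsequestrin, overlapped as well, at 4.08 and 3.90 against 4.11 and 4.03, 3.50 and 3.65, and 3.33 and 3.97.

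The slow form led for MYBPC1 over MYBPC2 by 0.91, TNNI1 over TNNI2 by 0.75, TPM3 over TPM1 by 0.59 and MYH7 over MYH4 by 0.17. In the troponin I pair neither form was clear of the other arrays. The 3 heavy chain pairs share MYH7, so they are not separate evidence. The share of rising probe sets was the larger in the fast form in 8 of the 13 pairs.

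**Figure D4:**
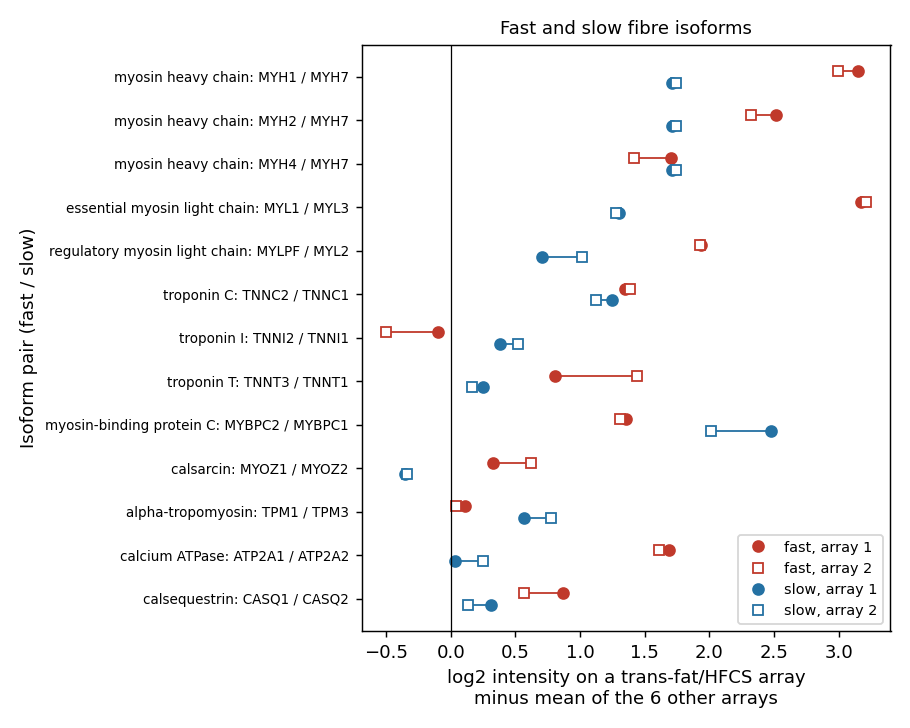
For 13 isoform pairs, the horizontal axis gives the log2 intensity on a trans-fat/HFCS array minus the mean of the 6 other arrays, for the fast gene (red) and the slow gene (blue) on array 1 (filled circles) and array 2 (open squares). The fast gene lies further right in 9 pairs on both arrays, and the slow gene in the other 4.

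Some probe sets of the same genes went the other way. By the mirror image of the rule, 8 of the 1230 (0.650%) were counted as falling, against 1.06% of all probe sets, and the 7 genes that held them each had rising probe sets too. A probe set of ENO3 read 4.65 and 4.50 on the trans-fat/HFCS arrays against 7.89 and 7.89 on control, 7.25 and 7.32 on MSG and 6.44 and 7.80 on combined arrays. One of CKM read 8.82 and 8.67 against 10.89 and 10.88, 10.81 and 10.77, and 10.03 and 10.08, so it was bright on every array and lowest on those of the trans-fat/HFCS diet. A probe set of KBTBD10, whose product (now named KLHL41) supports myofibril assembly, read 2.56 and 2.98 against 6.57 and 6.08, 6.99 and 6.59, and 3.67 and 3.76.

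The KBTBD10 and CKM probe sets were low on the combined arrays too, in between the trans-fat/HFCS arrays and the rest. Of the 8 falling probe sets 4 had this order, the others being of TCAP and TTN, and 4 of the 8 were the brightest probe set of their gene. Without them the median difference of the fast list was 1.56 in place of 1.37. With the brightest probe set in place of the mean, the differences of KBTBD10 and CKM were -2.84 and -1.83 in place of 1.19 and 1.30. Why probe sets of a gene disagreed was not tested.

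Some other sarcomeric heavy chains behaved like the members, and MYH7B and MYH15 did not. MYH8, the perinatal form, differed by 1.32, MYH6, the atrial form, by 1.16, MYH13, of extraocular muscle, by 1.02 and MYH3, the embryonic form, by 0.60, each with both trans-fat/HFCS arrays above all others. The nonmuscle heavy chains MYH9 (-0.03), MYH10 (-0.20) and MYH14 (-0.06) overlapped with the other arrays, as did MYH7B (0.00), MYH15 (-0.09) and the smooth muscle form MYH11 (0.48). In the cat gene table MYH4, MYH1, MYH2 and MYH3 neighbour one another. The rule that a probe set carries a single gene name may not separate the closely related members of this cluster, whose sequences were not compared.

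The tests were run on comparisons without the trans-fat/HFCS arrays, since those arrays chose the members. In the combined diet against control, which differ by trans fat, HFCS and MSG, 1 of the 42 members passed (limma, Benjamini-Hochberg adjustment over 17910 genes, threshold 0.05), against 1.16% of all genes. This was KBTBD10, which was lower: 3.51 and 3.33 on the combined arrays against 4.44 and 4.63 on control, a log2 change of -1.12 (SE 0.17, adjusted p = 0.027 by limma). The call rested on its falling probe set, and without it the change was -0.37 (adjusted p = 0.50 by limma). It was also lost with no filter on brightness (adjusted p = 0.089 by limma), with the median probe set (0.63) and with only those diets fitted (0.080). Leaving out a control array gave an adjusted p of 0.14 or 0.20, an MSG array 0.051 and a combined array 0.074 or 0.078 by limma. Over all alternatives it ranged from 0.012 to 0.63. At an unadjusted p under 0.05 there were 5 members, 3 higher and 2 lower, against 16.5% of all genes.

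No member passed in MSG against control or in combined against MSG by limma, where 0.296% and 1.66% of all genes did. At an unadjusted p under 0.05 there were 2 members in the first and 5 in the second, against 7.64% and 17.3% of all genes. The members with the smallest p in MSG against control were KBTBD10 (-0.60, adjusted p = 0.37 by limma), TNNI2 (0.58, adjusted p = 0.42) and RYR1 (-0.24, adjusted p = 0.81). In combined against MSG they were TCAP (-0.68, adjusted p = 0.099), TNNT3 (0.89, adjusted p = 0.10) and LDB3 (0.65, adjusted p = 0.15), a Z-disc protein. Medians over the members were -0.01, -0.01 and 0.04 in the order MSG against control, combined against control and combined against MSG.

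The intervals of these changes bound the change in the gene means as measured, not in the RNA behind probe sets near the array's floor. Of the 493 member probe sets in those means, 126 would not have passed a filter set on the other 6 arrays. The tests were not rerun with that filter. The 95% confidence interval of a member's log2 change had a median margin of 0.43 on either side, and its upper bound was below 1 for 40 of 42 members in MSG against control, 39 in combined against control and 40 in combined against MSG. A p that misses the threshold does not show that the diets were alike in these genes.

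The same comparisons were made on single probe sets. Of the 194 rising ones, 0, 2 and 2 passed in the order given above (0.0575%, 0.103% and 0.284% of all probe sets), and none of them was higher. At an unadjusted p under 0.05 there were 10 (5.15%), 16 (8.25%) and 13 (6.70%), against 5.59%, 9.47% and 9.82% of all probe sets. An ACTA1 probe set, high on the trans-fat/HFCS arrays (7.43 and 7.74), was low on the combined arrays (3.00 and 2.77) against control (5.21 and 5.12), a change of -2.28 (SE 0.19, adjusted p = 0.040 by limma). An MYH7 probe set had the same order, at 7.52 and 7.59 on the trans-fat/HFCS, 4.03 and 3.51 on the combined and 6.25 and 5.97 on the control arrays (-2.34, SE 0.23, adjusted p = 0.049 by limma). A MYOZ1 probe set that was not a rising one was low on both diets with trans fat: 2.32 and 2.21 on the trans-fat/HFCS and 2.11 and 2.33 on the combined arrays, against 4.16 to 4.47 on the control and MSG arrays.

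Lists of other cell types were set beside the members, described by counts. Of 47 further skeletal muscle genes, 1 was lower on both trans-fat/HFCS arrays than on all others, and the median difference was 0.14. Higher on both were 12, against 6.53% of all genes. They were led by PDLIM3 (1.68), a Z-disc protein, TMOD4 (1.62), which caps thin filaments in muscle, MYH8 and NRAP (1.22), which links thin filaments to the membrane. TMOD4 rested on 2 usable probe sets and read 3.80 and 4.90 on the trans-fat/HFCS arrays. The lowest differences were those of CSRP3 (-0.85), the gene below all other arrays, SMPX (-0.67) and SMYD1 (-0.56). In this list 32 of 600 probe sets (5.33%) were rising. The summed intensity of the 13 fast genes was 467 to 481 on the trans-fat/HFCS arrays, 151 to 157 on control, 162 to 163 on MSG and 170 to 173 on combined arrays. For the 9 slow genes it was 257 to 269 against 122 to 127, 121 to 125 and 120 to 133.

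Markers of heart, smooth muscle and muscle progenitors are short lists, so nothing is read from their counts. Over all genes 6.53% were above all other arrays. Of 15 cardiac genes 1 was (MYH6, 1.16) and 1 was below them (MYBPC3, -0.62), with a median of 0.16 and a summed intensity of 277 to 284 on the trans-fat/HFCS arrays against 245 to 291 on the others. Of 15 smooth muscle genes 2 were, SYNPO2 (0.90) and LMOD1 (0.76), with a median of 0.18 and sums of 463 to 534 against 402 to 458. None of 10 genes of satellite cells and muscle differentiation was, where PAX3 (-0.48) was below all other arrays, nor was any of 9 genes of the neuromuscular junction. Their medians were -0.07 and 0.02. Of 18 nonmuscle relatives of the members 2 were above all others, CKB (0.73) and the cytoplasmic actin ACTG1 (0.36), with a median of 0.08.

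None of 10 adipocyte, 5 erythroid, 8 fibroblast and 8 endothelial genes was clear of the other arrays on the high side, and their medians were 0.28, 0.47, -0.14 and -0.12. With 6.53% of all genes clear in this way, nothing is read from these counts either. Summed adipocyte intensity was 301 to 337 on the trans-fat/HFCS arrays, close to the 330 to 339 of the combined arrays and above the 241 to 282 of control and MSG. RETN, the brightest gene of the list, weighs most in these sums. It read 7.18 and 7.03 on the trans-fat/HFCS, 7.32 and 7.34 on the combined and 6.19 to 6.78 on the control and MSG arrays. PLIN1, LEP, CFD and LPL had differences below 0, and the other adipocyte genes above 0. Summed erythroid intensity was 86.8 to 90.6 on the trans-fat/HFCS arrays and 64.2 to 80.0 on the others. The part of these lists in the members' pattern was not tested.

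**Figure D5:**
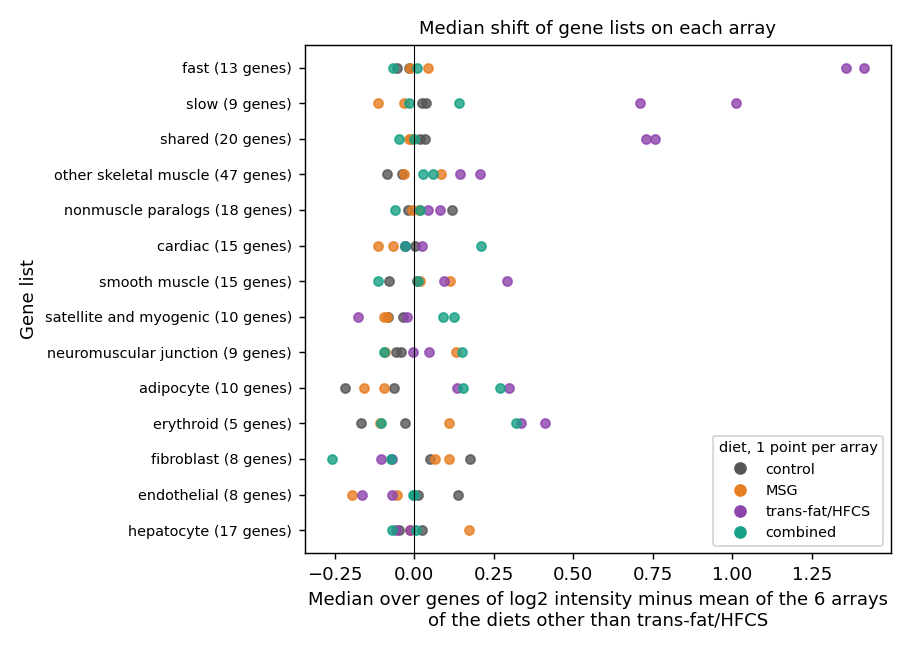
For each gene list, points give the median over its genes of the log2 intensity on an array minus the mean of the 6 arrays of the diets other than trans-fat/HFCS, with 1 point per array coloured by diet. The fast, slow and shared lists have their trans-fat/HFCS points between 0.71 and 1.41, and no other list has a point beyond 0.41.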

How the data were processed

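Liver RNA of 8 arrays, 2 per diet, was analysed. The target for the Affymetrix HuGene 1.0 ST arrays was biotinylated DNA made from 250 ng of RNA, per the labels' protocols. The authors deposited one linear, normalized intensity per exon-level probe set; per the submitters' processing notes the build was hg19 and the tools included Partek and GCRMA, with no version or role. Cat RNA binds human probes less where sequences differ, and where cats differ in a probed sequence, values can differ at equal expression. Intensities were log2 transformed here. Gene names are those of the platform annotation, which gives 1 name for 224320 of 257101 probe sets, several for 10159 and none for 22622. Probe sets with a mean over the 8 arrays above the median of all (intensity 5.38) were averaged per gene, 111624 in 17910 genes. Of the 42 members 41 had their symbol in a cat gene table, used for names and neighbours only; KBTBD10 did not. No genome was used, so no coordinates are given.

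Diets were compared with limma 3.58.1 (R 4.3.3; lmFit, eBayes) in a 4-group model on all 8 arrays, two-sided, with Benjamini-Hochberg adjustment over all genes and a threshold of 0.05; the number of arrays limits the precision. The steps were tested on simulated data. No tested contrast of the members includes the trans-fat/HFCS arrays. Those arrays do enter the pooled spread of the model and the filter on brightness that sets the gene means. The members, gene lists and rules were chosen with earlier results of these data known. Values on every array are given for the 12 members with the largest difference and the 5 with the smallest. They are also given for both genes of each isoform pair. Of other lists up to 4 genes with the largest difference are named, with the lowest of the further skeletal muscle genes. Of other genes the 10 with the widest gap are named. In tests, members past the threshold are named, otherwise the 3 with the smallest p. Alternatives changed the filter, the gene value, the scale, the normalization, the arrays and the lists; 3 of them, without the falling probe sets, on single probe sets and without TTN, NEB and RYR1, were chosen after seeing the data, as was the recount of the isoform pairs under each alternative.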

Additional observations from a re-analysis of the deposited data

Results flagged for a closer look

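The diets form a square, MSG absent or present on chow and on the trans-fat/HFCS base, and in 9 members every array moved one way under one arm of a comparison and the opposite way under the other. None of these differences between effects was tested, because they rest on the arrays that chose the members. The share of all genes with such a turn was not counted, so nothing is read from the number of members. For MYH4 the MSG effect was 0.09 on chow and -1.56 on the trans-fat/HFCS base, a difference of -1.64 on the log2 scale. For CKM it was 0.09 and -1.41, a difference of -1.50, and for MYOM1, an M-band protein, 0.09 and -0.33, a difference of -0.42. For TPM3 both effects turned, that of MSG from 0.17 to -0.80 and that of trans fat and HFCS from 0.69 to -0.29, each a difference of -0.97.

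In 5 more, adding trans fat and HFCS gave a difference above 0 without MSG and below 0 with it. ACTA1 had 2.86 and -0.23, a difference of -3.08, CKMT2 1.64 and -0.49 (-2.13), and KBTBD10 0.62 and -0.51 (-1.13). TTN had 0.98 and -0.11 (-1.10), and MYOZ1 0.41 and -0.38 (-0.79).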

How the results depend on the processing

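The median difference of all members, 1.12, was 0.51 with no filter on brightness, 0.61 with a filter at the 75th percentile, 0.34 with the filter set on the other 6 arrays, 0.39 with the brightest probe set and 0.64 with log2(intensity + 16). In the same order the fast list (1.37) gave 0.62, 1.16, 0.43, 0.79 and 0.83, and the slow list (0.86) gave 0.53, 0.60, 0.30, 0.15 and 0.43. The fast list also gave 1.89 with the median probe set and 1.56 without the 8 falling probe sets. Fast minus slow (0.51) was 0.091 with no filter, 0.13 with the filter on the other 6 arrays, 1.12 with the median probe set and 0.70 without the falling probe sets. Leaving out each array in turn gave 0.90 to 1.12 for all members, 1.36 to 1.42 for the fast and 0.71 to 1.01 for the slow list, and 0.40 to 0.65 for fast minus slow. Quantile normalization, the control arrays alone as reference and other fast and slow lists moved these medians by less than the spread of the arrays. The fast form led in 7 to 10 isoform pairs, out of 13 or, at the 75th percentile, 11, under the alternatives run.

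The 194 rising probe sets were 121 at a fold of at least 2 on the log2 scale, 119 with log2(intensity + 16), 112 of 655 (17.1%) without TTN, NEB and RYR1, and 196 to 229 with an array left out. Of 709 recomputed gene differences 26 changed sign, in 11 genes. Of these genes 4 were among the 31 above all other arrays: MYBPC1 (-0.22, 75th percentile), and KBTBD10 (-2.84), CKM (-1.83) and RYR1 (-0.15) with the brightest probe set. The other 7 (TNNI2, ENO3, TPM1, MB, TCAP, LDB3 and MYOM2) were not, and TCAP went furthest, from -0.02 to 0.94 with the median probe set. The cause was not tested.

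In combined against control the count of 1 call became 0 with no filter, the median probe set, only those diets fitted or without the falling probe sets, 3 at the 75th percentile or on probe sets, 6 with the brightest probe set, and 0 to 1 with an array left out. In combined against MSG the count of 0 became 1 with no filter, 5 at the 75th percentile and on probe sets, and 6 with the brightest probe set. In MSG against control it stayed 0 under every alternative. Signs turned for KBTBD10 in MSG against control (0.46, brightest probe set), and in combined against MSG for LDB3 (-0.13, brightest probe set) and TCAP (0.11, median probe set, and 0.022 without the falling probe sets). Same-numbered arrays of different diets did not deviate together (correlations -0.0555 to 0.0433), so the numbers do not pair them. With the replicate number as a block the counts were 0 in all 3 comparisons.

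With 2 arrays per diet and no detection calls, levels near the array's floor have no known size. Leaving out one trans-fat/HFCS array leaves the other with no spread of its own.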

Other observations

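The genes outside the members whose pattern was most like theirs were found by the gap between the lower trans-fat/HFCS array and the highest of the other 6, among genes with at least 2 usable probe sets. PDLIM3 came first among them, with a gap of 1.22, at 5.52 and 5.45 on the trans-fat/HFCS arrays and 3.31 to 4.23 on the others. MYH8 (0.93), NRAP (0.83) and MYH6 (0.75) were the other muscle genes among the first 10. The rest were ZNF385D (1.15), C16orf55 (0.98), ZBTB3 (0.86), WDR86 (0.81), C14orf48 (0.72) and OTX2 (0.72), of which all but WDR86 had at least 1 rising probe set, and all 6 rested on 2 usable probe sets. The combined arrays of ZNF385D, at 4.80 and 5.25, also lay above the control and MSG arrays, which were at 2.93 to 3.39. PDLIM3 had this order too, at 4.23 and 4.11 on the combined arrays against 3.31 to 3.97 on control and MSG. So did MYH6, at 3.90 and 4.06 against 3.21 to 3.76, whereas MYH8 and NRAP did not.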
